A study of Mus musculus with 6 samples.

Results

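The members described here are 91 long intergenic noncoding RNA (lincRNA) genes of 48709 genes in the deposited expression table. They are the rows with the biotype lincRNA and at least 20 exon reads in at least 3 of the 6 libraries. Malat1, Neat1, Gas5, Kcnq1ot1, the Snhg genes and all genes of chromosomes X and Y were left out. The table held 3960 lincRNA rows, of which 1479 had at least 1 exon read in any library and 101 met the read minimum. Of these 101, 5 were left out by name and 5 by chromosome. The members were chosen by their exon reads, so their exon read levels are a description. At the threshold, B230303O12Rik and Gm26799 had 20 reads in their third-ranked library and were kept, and 2700038G22Rik, Gm26640 and Gm43597 had 19 and were not.

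The samples were flow-sorted invariant natural killer T (iNKT) cells, labelled as natural killer T cells, from mouse spleen in the resting state. The labels give 3 Gpx4 cKO samples and 3 WT samples; Gpx4 encodes a selenoenzyme that reduces lipid hydroperoxides. The labels and design text name no promoter for the deletion and do not say whether the samples came from separate animals. The table names its libraries only by the numbers 18 to 23 and index sequences, and 0 of the 6 could be matched to a genotype. No Gpx4 cKO against WT comparison was therefore made, and each library is described on its own. The Gpx4 level was 30.1, 3.20, 31.3, 14.5, 29.0 and 11.1 CPM in libraries 18 to 23 (exon reads per 1000000, scaled between libraries) and was not used to assign a genotype.

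A lincRNA is transcribed from a gene of its own and is usually capped, spliced and polyadenylated like a messenger RNA, but has no annotated long reading frame. Many are transcribed at low levels, stay in the nucleus, or start beside a protein-coding gene on the opposite strand. A few serve as the precursor of microRNAs, and a few have been found to be translated. In T lymphocytes, lincRNA genes are often expressed in a lineage- or activation-dependent way.

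Exon reads totalled 8020374, 10122187, 5432206, 903524, 5406110 and 1916746 in libraries 18 to 23, an 11.2-fold span. The number of members with at least 20 reads was 89, 91, 86, 17, 72 and 34 in the same libraries. In all, 17 members reached 20 reads in every library, 12 had 0 reads in at least 1 library, and 9 of those 12 had 0 in library 21. The level that a count of 0 allows reached 3.62 CPM for library 21, against 0.282 CPM for library 19. A filter on low counts over all genes kept 65 of the 91 members. Markers of iNKT and T cells summed to 3157 to 4525 CPM. B cell markers summed to 22.97 to 60.2 CPM (8 of 8 found), myeloid markers to 4.43 to 7.24 CPM (6 of 7 found, 1 at 0 in every library), endothelial and stromal markers to 90.7 to 128 CPM (1 of 4 at 0 in every library), dendritic cell markers to 2.05 to 18.1 CPM and platelet markers to 2.58 to 15.8 CPM. Plasma cell markers summed to 179 to 1245 CPM and erythroid markers to 3.61 to 262 CPM, both highest in library 23 and lowest in library 18. In bulk RNA, fewer cells of a type and less RNA per cell cannot be told apart.

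The members took a small share of the exon reads, and its differences between libraries mostly followed 1 gene, Gm26870. The members held 0.384% of exon reads in library 18, 0.339% in 19, 0.601% in 20, 0.336% in 21, 0.368% in 22 and 0.452% in 23. Their summed level had a median of 3690 CPM, with the lowest value of 3227 CPM in library 19 and the highest of 5931 CPM in library 20. Gm26917, beside a ribosomal RNA gene, and Gm26870, a tandem repeat, made up 33.1%, 23.8%, 61.6%, 39.3%, 35.9% and 57.6% of the members' reads in libraries 18 to 23. The other 89 members summed to 2480, 2457, 2277, 2222, 2355 and 1937 CPM. Without that pair the span between the highest and lowest library was 1.28-fold, against 1.84-fold with it, and library 20 was no longer the highest. Gm26870 was at 2986 CPM in library 20 and 1305 CPM in 23, against 185 to 433 CPM elsewhere. Gm26917 did not share the peak in library 20, at 668 CPM there and 584 to 1329 CPM elsewhere. The 14 genes of the nuclear and snoRNA-host class that the rule leaves out summed to 6405, 5187, 6098, 5362, 5383 and 4202 CPM, above the members in all libraries but 23.

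**Figure D1:**
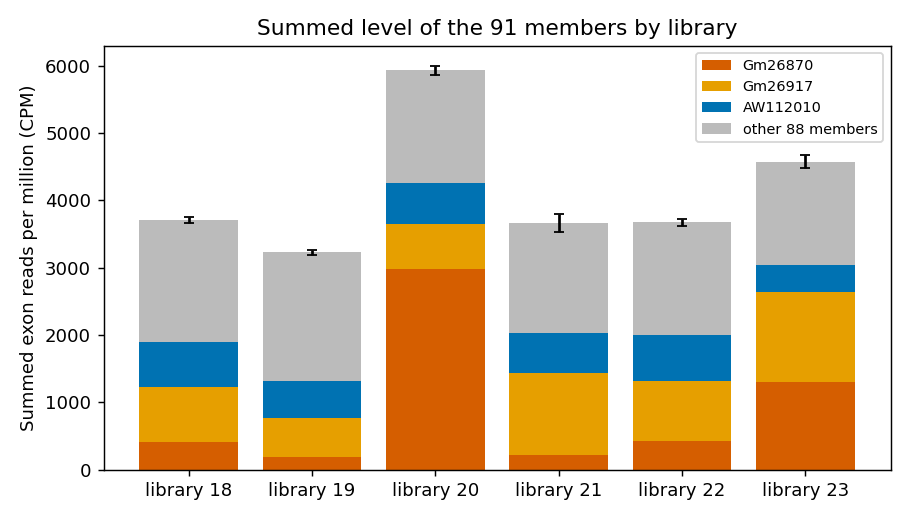
Summed exon read level of the 91 members in CPM (y axis) in each library (x axis), stacked into Gm26870, Gm26917, AW112010 and the other 88 members; error bars are exact 95% Poisson intervals of the sum. Library 20 reached 5931 CPM with 2986 CPM from Gm26870. The 89 members other than Gm26870 and Gm26917 summed to 1937 to 2480 CPM.

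Most members were low. A median of at least 100 CPM was reached by 6 members, of at least 10 CPM by 38, and 53 were below 10 CPM, down to 1.85 CPM. Per exon length, the middle member had a median RPKM of 1.48, against 4.06 for 9118 protein-coding genes under the same read minimum. These are the autosomal protein-coding genes of 2 or more exons, here and below. On that per-length scale the leading members were Gm26917 at 473 RPKM, AW112010 at 347 RPKM, Gm26870 at 75.9 RPKM, AU020206 at 51.8 RPKM, Lncpint at 32.5 RPKM and Gm19585 at 31.1 RPKM. 1700020I14Rik and AI504432, with long exons, followed AI662270 (25.7 RPKM) at 17.4 and 10.04 RPKM.

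**Figure D2:**
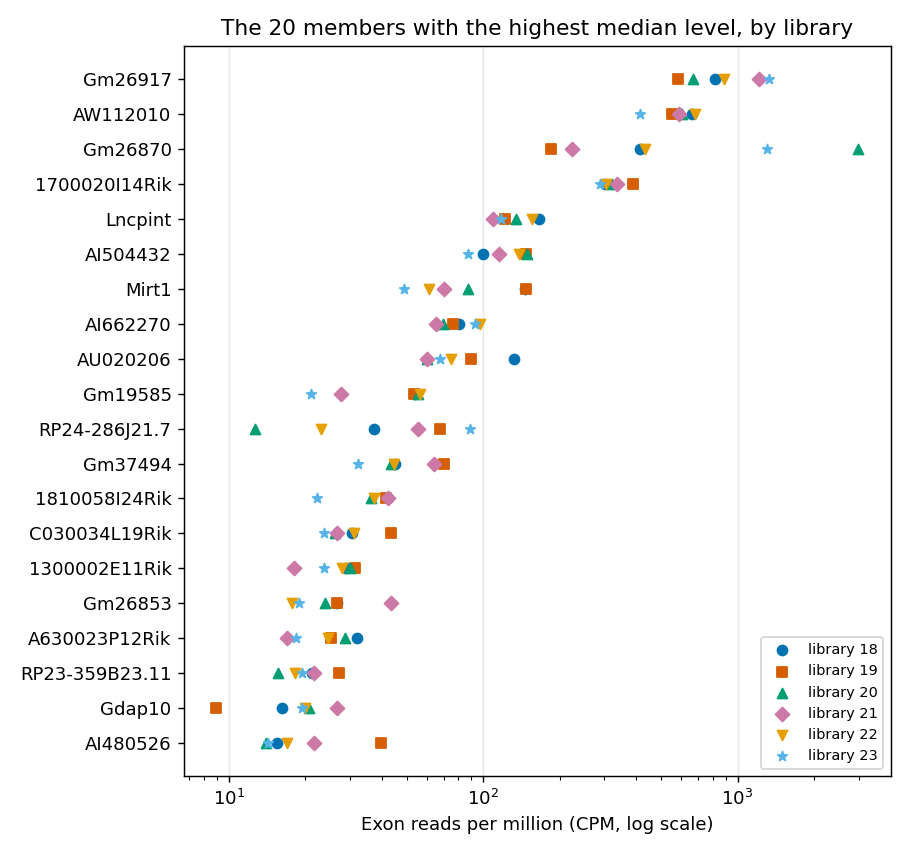
Level in each library (x axis, CPM on a log scale; 1 marker per library) of the 20 members with the highest median level (y axis, highest at the top). Gm26870 spans 185 to 2986 CPM and RP24-286J21.7 spans 12.7 to 88.6 CPM, while 1700020I14Rik stays between 287 and 390 CPM.

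By median CPM, AW112010 was second to Gm26917; Gm26870 had more reads in total (26820) than either. AW112010 is annotated as noncoding but is known to be translated from a non-AUG start in mouse immune cells, where it rises with inflammatory signals. Its level was 662, 551, 606, 588, 683 and 413 CPM in libraries 18 to 23. Library 23 was low and the other libraries lay close together; the highest was 1.65 times the lowest (95% counting interval 1.53 to 1.79). Of its exon reads 84.8% crossed a splice junction, and 0.733% of its reads lay on introns. Its RefSeq promoter window lies on chromosome 19, minus strand (GRCm38.p6, chr19:11050517-11050816), and runs from 250 bases before the start to 50 after it. Capitals mark a match to the NF-kappaB consensus, on the opposite strand; that consensus was searched after a narrower form had given no match and after this sequence had been seen.
AW112010 promoter: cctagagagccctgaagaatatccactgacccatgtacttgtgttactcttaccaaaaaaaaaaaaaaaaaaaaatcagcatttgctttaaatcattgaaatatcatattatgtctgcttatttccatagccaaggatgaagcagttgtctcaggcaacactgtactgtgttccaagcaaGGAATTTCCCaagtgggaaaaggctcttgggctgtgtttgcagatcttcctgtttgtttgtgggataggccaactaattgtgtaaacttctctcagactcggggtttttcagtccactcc

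Lncpint, a p53-linked transcript that is known to bind Polycomb proteins, was at 165, 122, 135, 110, 156 and 118 CPM. It was mostly read on introns (94.2% of its reads), and 8.22% of its exon reads crossed a junction. 1700020I14Rik, upstream of the mitotic gene Nusap1 by 24001 bases, was the steadiest of the high members at 300, 390, 320, 337, 304 and 287 CPM. Only 1.17% of its reads lay on introns, with 4.47% of its exon reads on junctions. AI504432 starts 3335 bases from the start of Kcna3, a potassium channel gene of T cells, on the same strand. Its level was 99.9, 147, 148, 116, 138 and 87.5 CPM, and Kcna3 itself was at 23.7, 33.3, 27.1, 7.24, 30.8 and 23.2 CPM. Both were highest or nearly so in library 19, but their lowest libraries differed. AI662270, on chromosome 11 near the Schlafen gene Slfn3, was at 65.2 to 97.1 CPM with its highest value in library 22. Gm19585 lies on chromosome 17 at 315999 bases from the start of Satb1, a chromatin organizer of T cells. Its level was 54.2, 53.7, 55.6, 27.8, 56.5 and 21.1 CPM, with libraries 21 and 23 apart from 4 nearly equal ones. The ratio of highest to lowest was 2.68 (1.92 to 3.82), and without libraries 21 and 23 the fitted ratio was 1.05, against 2.65 with them. It was among the most spliced members, with 81.7% of exon reads on junctions.

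Pooled over read numbers, the exon reads of the members differed between libraries about as often as those of other genes. The few members with at least 500 reads were called more often than genes with as many reads. A chi-square test of each gene's exon counts against the library sizes was run on the 9042 genes with at least 200 reads, with Benjamini-Hochberg adjustment over all of them. It called 41 of the 56 members tested (73.2%) at an adjusted p of 0.05, beside 71.6% of all genes tested. Intron reads, which the rule did not use, were tested in the same way. They differed in 41 of 47 members (87.2%), beside 87.1% of 9221 genes. Both pooled counts are near the background. At a like number of exon reads the shares called were 58.8% of members, against 61.4% of all genes, from 200 to 500 reads. They were 92.3% (12 of 13 members) against 65.5% from 500 to 2000 reads, and 100% (9 of 9) against 84.5% from 2000 reads. These better-read classes hold few members, chosen on the same exon reads, and the difference in shares was not tested. With a minimum of 50 reads the test called 64 of 91 members, beside 69.3% of all genes, and with 500 reads 21 of 22, beside 74.6%. Of the 38 members tested on both exon and intron reads, 25 were called on both (65.8%), beside 62.8% of 7275 genes. The test covers counting error only and says nothing about genotype.

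In the better-read classes, which hold few members, the differences were larger than in genes with as many reads, which was not tested. A fitted range over 2-fold (2 reads added per library) was seen in 32 of 56 members (57.1%), beside 26.2% of all genes tested. Ranges widen at low counts, and in the class of 200 to 500 reads, with 34 of the 56 members, the share was 58.8% of members, against 63.7% of all genes. From 500 to 2000 reads it was 61.5% against 23.8%, and from 2000 reads 44.4% against 6.77%. Among genes with 200 to 500 reads, the median log2 range was 1.44 for 34 members, against 1.21 for 1958 genes. Between 500 and 2000 reads it was 1.28 for 13 members, against 0.69 for 3777 genes, and from 2000 reads it was 0.76 for 9 members, against 0.43 for 3307 genes. No member was in excess in a single library by over 8 times the highest other level, a size met by 0.469% of 9596 genes. At 4 times, 1 member was, A630072L19Rik. The share of all genes at 4 times is not given here, so that count describes this gene only. Among the tested members, 13 were highest and 15 lowest in library 21, and 6 were highest and 17 lowest in library 23, so the shallow libraries held 32 of 56 lowest values (57.1%), against 49.8% over all genes tested.

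**Figure D3:**
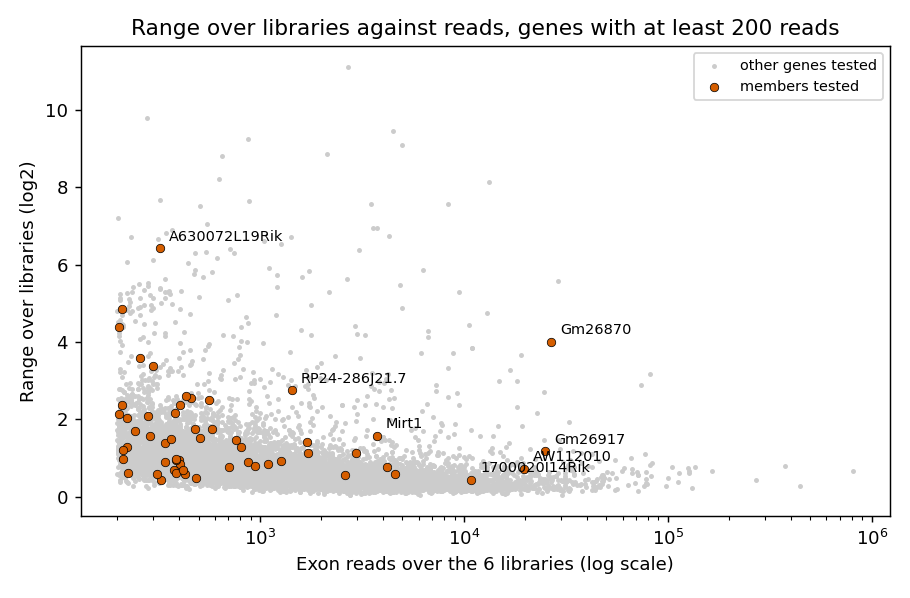
Range over the 6 libraries (y axis, log2 of the highest over the lowest level with 2 reads added) against exon reads summed over libraries (x axis, log scale) for genes with at least 200 reads; orange points are the 56 members tested and grey points the other genes. Gm26870 and A630072L19Rik stand highest among the members with many and with few reads, at log2 ranges of 4.01 and 6.42.

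Gm26870 had the widest range among the abundant members. Its level was 412, 185, 2986, 224, 433 and 1305 CPM in libraries 18 to 23. Libraries 20 and 23 were far above the others, and the ratio of library 20 to library 19 was 16.1 (15.4 to 16.9). Without library 20 the fitted ratio was 6.9997, against 16.1 with it. Its intron reads had the same order at the top, with 107, 46.3, 698, 51.2, 129 and 329 intron CPM (intron reads per 1000000 intron reads of the library). The gene spans chr9:3000282-3038313 on the minus strand (GRCm38), and 9 predicted genes lie within it on the opposite strand. Together these 9 were at 102, 37.0, 810, 47.1, 123 and 308 CPM, also highest in library 20, next in 23 and lowest in 19. Whether the counting used strand is not given in the sources used here, so reads of Gm26870 and of those genes cannot be told apart. Erythroid marker sums did not have that order, with 89.6 CPM for library 20 and 262 CPM for library 23. Library 20 also had the most genes with exon reads, 18777, against 15744 in library 19 and 14278 in library 23. Gpc5, the coding gene nearest to Mir17hg, had 0 exon reads. Its intron reads were 237, 135, 472, 10, 92 and 100 in libraries 18 to 23, not scaled to depth. Libraries 20 and 23 were shallower than 18 and 19, with 5432206 and 1916746 exon reads against 8020374 and 10122187. The part of these marker sums, gene numbers and intron reads in the result was not tested.

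The RNA of Gm26870 is a tandem repeat, which is why its units are shown. The transcript Gm26870-202 of GENCODE M21 matched itself at 95.9% of bases when shifted by 234 bases. At that shift Gm26870-201 matched itself at 81.5% and Gm26870-203, from which the units come, at 78.3%. The highest such value of any other member was 72.6%, at a shift of 84 bases in BC002059. The mouse major satellite, the main repeat beside mouse centromeres, has a repeat unit of the same 234 bases in length. The first exon of Gm26870-203 holds both units below in a row, at chr9:3038080-3038313 and chr9:3037846-3038079 (GRCm38, minus strand). Capitals in unit 2 mark the 17 bases that differ from unit 1.
Gm26870 unit 1: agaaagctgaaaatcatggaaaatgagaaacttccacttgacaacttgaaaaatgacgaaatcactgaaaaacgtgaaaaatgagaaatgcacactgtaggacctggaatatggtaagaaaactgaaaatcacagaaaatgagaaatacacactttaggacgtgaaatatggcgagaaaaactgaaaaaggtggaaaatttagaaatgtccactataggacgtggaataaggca
Gm26870 unit 2: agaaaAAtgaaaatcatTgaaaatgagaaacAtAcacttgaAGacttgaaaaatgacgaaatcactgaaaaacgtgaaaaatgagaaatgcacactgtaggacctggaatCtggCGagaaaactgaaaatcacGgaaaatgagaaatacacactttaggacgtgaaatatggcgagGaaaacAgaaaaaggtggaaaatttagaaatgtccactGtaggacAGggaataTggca

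Gm26917, on chromosome 17 (chr17:39843013-39846341, plus strand, GRCm38), ends 11 bases from Rn18s-rs5, a ribosomal RNA gene on the other strand. Its exon level was 815, 584, 668, 1214, 885 and 1329 CPM, and 94.7% of its reads lay on its intron. Libraries 21 and 23 were highest on exon reads, and also on intron reads, with 23916 and 21859 intron CPM, against 11152 to 17657 in the other libraries. Rn18s-rs5 was at 197, 184, 255, 399.4, 227 and 665 CPM, likewise highest in 23 and 21. Libraries 21 and 23 are also the shallowest; the part of depth and of ribosomal RNA in this result was not tested.

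Mirt1, a lincRNA first described in the mouse heart after infarction, lies on chromosome 19 at 64313 bases from the start of Dusp5, which encodes a MAP kinase phosphatase. Its exon level was 147, 147, 87.1, 69.99, 61.5 and 49.0 CPM, high in libraries 18 and 19. Library 19 stood 3.01 times above library 23 (2.44 to 3.75; adjusted p = 6.6e-89 in the chi-square test). Intron CPM was 194, 236, 129, 198, 128 and 91.8, with the same highest and lowest libraries and with library 21 second. Dusp5 did not have that order, with 141, 91.4, 151, 175, 131 and 113 CPM. Mirt1 carries a full match to an AP-1 motif, TGANTCA, before its start. The window is chr19:53464747-53465046, minus strand (GRCm38.p6), with the motif in capitals.
Mirt1 promoter: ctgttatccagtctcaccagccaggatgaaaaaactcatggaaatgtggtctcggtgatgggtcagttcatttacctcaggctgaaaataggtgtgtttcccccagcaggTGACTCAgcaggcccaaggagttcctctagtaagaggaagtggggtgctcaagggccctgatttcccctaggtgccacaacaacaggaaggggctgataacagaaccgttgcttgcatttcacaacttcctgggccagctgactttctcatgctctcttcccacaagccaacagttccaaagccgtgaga

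Promoter sequences in the RefSeq table matched 47 members, with 59 promoters, among 32851 in all. Both strands were searched. TGANTCA, a loose form of the AP-1 motif with 1 free letter, was in 4 member promoters (1810058I24Rik, Gm16973, Mirt1 and RP23-381H23.1), and in 7.81% of all promoters. In Gm16973 the match reads TGATTCA, and in RP23-381H23.1 it lies after the start. The 1810058I24Rik match belongs to a RefSeq start 4337 bases from the start of the gene. The cyclic AMP response element TGACGTCA was in 2 (1300002E11Rik and B230354K17Rik), and in 1.79% of all. The NF-kappaB consensus was in 2 (AW112010 and 4933424M12Rik), and in 4.51% of all. A narrower NF-kappaB form (GGGA, 1 free letter, TTTCC) was in 0 of the 59, and in 0.411% of all. The interferon-stimulated element (GAAA, 2 free letters, GAAA) was in 0 of the 59, and in 3.44% of all. A match describes letters in the window and is no evidence of binding.

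Several other members moved between libraries with exon and intron reads alike, or with exon reads alone. RP24-286J21.7, now named Gm42047, was at 37.3, 67.6, 12.7, 55.5, 23.1 and 88.6 CPM. Library 20 was low and library 23 high, a ratio of 6.96 (5.24 to 9.33), or 3.78 on the fitted scale without library 20, against 6.79 with it. Its intron CPM was 25.5, 31.2, 3.56, 8.34, 8.20 and 47.9, also lowest in 20 and highest in 23. It lies inside the span of Gm20388 on the same strand, so its reads are uncertain. AU020206, read 95.2% on introns, had 132, 89.7, 59.997, 60.3, 75.1 and 68.0 CPM on exons. Library 18 was highest, 2.20 times library 20 (1.94 to 2.50), but on intron reads library 19 was highest with 1995 intron CPM, followed by library 22 with 1856 and library 18 with 1781. AI480526 starts 527 bases from Setd1b, a histone methyltransferase gene, on the opposite strand. It was at 15.5, 39.5, 13.999, 21.72, 16.98 and 14.2 CPM, with library 19 alone high on exon reads; its intron reads were highest there too, at 24.5 intron CPM against 9.46 to 16.0 in the others. Without library 19 its fitted ratio was 1.54, against 2.78 with it. Setd1b was level at 93.6 to 111 CPM (adjusted p = 0.064 in the chi-square test).

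A630072L19Rik had the widest range of all named members and lies within Ccdc88c, a gene of a signalling scaffold, on the opposite strand. It had 33, 71, 65, 2, 3 and 149 exon reads, or 3.98, 6.69, 11.8, 2.41, 0.554 and 78.6 CPM. Library 23, among the shallowest, was far above all others. The ratio to library 22 was 142, with a counting interval of 47.6 to 696 because that library had 3 reads. Without library 23 the fitted ratio was 13.8, against 85.6 with it, and without library 22 it was 28.4. Its intron reads were 12, 5, 8, 0, 4 and 4, with no such excess, and none of its exon reads crossed a junction. Exon reads of Ccdc88c were at 296 to 333 CPM and did not pass the test (adjusted p = 0.198). Its intron reads, which hold the stretch around A630072L19Rik, were at 579, 585, 549.95, 587, 574 and 1254 intron CPM. Library 23 stood apart there too (adjusted p = 1.0e-266 in the chi-square test), and reads of the 2 strands cannot be told apart. Erythroid, plasma cell and platelet markers were also highest in library 23, at 262, 1245 and 15.8 CPM; their part in the result was not tested.

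**Figure D4:**
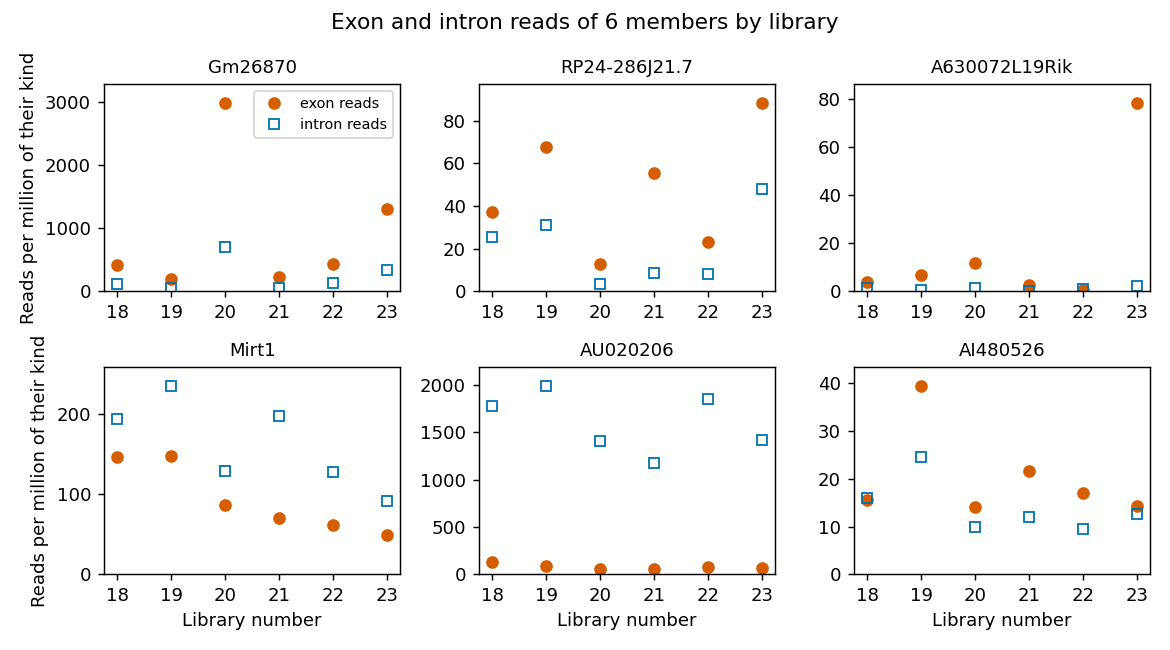
Exon reads (filled circles, CPM) and intron reads (open squares, intron CPM) of 6 members (1 panel each, y axes differ) in libraries 18 to 23 (x axis). Gm26870, RP24-286J21.7, Mirt1 and AI480526 have the same highest library in both kinds of reads, and A630072L19Rik has 78.6 CPM of exon reads in library 23 with 2.28 intron CPM.

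The remaining wide ranges mostly rested on library 21, where 1 read stands for over 1 CPM. Gm44226, near the Gimap5 gene of lymphocyte survival, reached 32.6 CPM in library 21, against 7.01 to 13.5 CPM in the others. Without library 21 its fitted ratio was 1.88, against 4.46 with it. Gm26853 was at 43.4 CPM in library 21 and 17.7 to 26.7 CPM elsewhere, and its fitted ratio was 1.497 without library 21, against 2.42 with it. Gm26778, overlapping Kctd12 on the opposite strand, had 22.9 CPM in library 21, 1.58 CPM in 23, and between 7.06 and 8.80 CPM in the others. Its fitted ratio was 4.84 without library 21 and 3.15 without library 23, against 11.9 with both. Gm13166, 2610035D17Rik and B230217O12Rik went the other way, each at 2.41 CPM (2 reads) in library 21. Elsewhere they were at 12.9 to 15.9 CPM, 7.91 to 16.6 CPM and 11.3 to 14.1 CPM. Without library 21 their fitted ratios were 1.22, 2.07 and 1.25, against 5.84, 6.10 and 5.199 with it, and only 2610035D17Rik passed the test (adjusted p = 0.0068). These low values are 2 reads each, so their intervals are wide. For Gm13166 the median ratio of unique to all exon reads was 0.302, so its values are uncertain. Gm26551, E130102H24Rik and Gm10505 had 0 reads in library 21. Their highest levels were 10.2, 7.38 and 9.05 CPM, against the limit of 3.62 CPM for that count. Without that library their fitted ratios were 2.77, 1.53 and 2.35. Gm26551 overlaps Tcf7 and other coding genes on its strand, so its reads are uncertain. Gm26809 was highest in library 18 (16.0 CPM) and lowest in library 21 (1.21 CPM, 1 read), a ratio of 13.3 with an interval of 2.34 to 528; without library 21 the fitted ratio was 3.93, against 10.4 with it. 6330403K07Rik was also lowest in library 21 (1.21 CPM) and RP23-115O21.3 highest there (16.9 CPM), and without library 21 their fitted ratios were 2.27 and 2.82. RP23-194H4.3, 47270 bases from the start of Art2b (an ADP-ribosyltransferase gene of T cells), was low in library 23 instead, at 3.69 CPM against 14.4 to 22.5 CPM elsewhere. Without library 23 its fitted ratio was 1.56, against 5.64 with it. Art2b was also lowest in library 23, at 153 CPM against 227 to 369 CPM in the others. Gdap10, within Nampt on the same strand, was lowest in library 19, at 8.95 CPM against 16.1 to 26.6 CPM; without library 19 its fitted ratio was 1.62, against 2.89 with it.

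Members that serve as microRNA precursors were low. Mir17hg carries a cluster of 6 microRNA hairpins that is known to promote lymphocyte growth in mice, and the RefSeq table holds 11 mature microRNAs within it. Its level was 6.02, 5.37, 5.82, 2.41, 7.94 and 2.64 CPM, with libraries 21 and 23 lowest. The ratio of 3.29, of library 22 to library 21, has a counting interval of 0.857 to 28.03 and rests on 2 reads of library 21. With 189 reads in total, Mir17hg was under the minimum of the chi-square test and was not tested over all libraries. E130102H24Rik carries miR-101a and was at 6.51, 6.78, 5.09, 0, 7.38 and 4.75 CPM (adjusted p = 0.147). 2900076A07Rik carries miR-1839 and was at 3.69 to 7.57 CPM, lowest in library 23 (adjusted p = 0.383 in the chi-square test). The table measures the host gene, not the mature microRNAs. Their mature sequences are shown because they give what these genes encode, with the seed, bases 2 to 8, in capitals. Within the Mir17hg cluster, miR-17-5p and miR-20a-5p share a seed and miR-19a-3p and miR-19b-3p share another.
miR-17-5p: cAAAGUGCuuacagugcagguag
miR-20a-5p: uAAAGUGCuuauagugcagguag
miR-18a-5p: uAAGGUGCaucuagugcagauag
miR-19a-3p: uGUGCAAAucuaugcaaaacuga
miR-19b-3p: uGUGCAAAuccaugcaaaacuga
miR-92a-3p: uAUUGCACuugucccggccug
miR-101a-3p: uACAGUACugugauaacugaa
miR-1839-5p: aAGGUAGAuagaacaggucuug

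Pvt1 and Dubr, other members with a known role, varied less than 2-fold between libraries. Pvt1, a lincRNA beside Myc, the gene of a growth-promoting transcription factor (52645 bases between the starts), was at 14.6, 10.2, 15.5, 10.9, 14.6 and 13.7 CPM on exons. Its exon reads did not pass the test (adjusted p = 0.0502), while its 11542 intron reads did (adjusted p = 1.2e-88), from 276 intron CPM in library 21 to 524 in library 23. It was read 96.8% on introns. Dubr, known from mouse muscle development, was at 7.95 to 15.7 CPM with libraries 21 and 18 at the ends, a ratio of 1.97 (0.998 to 3.61) that rests on 13 reads of library 21. Over all libraries Dubr passed the test on exon reads (adjusted p = 0.0016) and on intron reads (adjusted p = 1.5e-05), with 7.95 CPM in library 18, against 14.7 CPM in 19.

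The rule did not use structure or position directly. The members had fewer annotated exons, fewer junction reads and more often a coding start close by. These are descriptions with no test. They had a median of 3 annotated exons, against 18 for the 9118 protein-coding genes, and a median gene length of 8694 bases, against 24858. Exon numbers were higher in some members with more transcripts annotated, as in Pvt1, with 34 exons and 10 transcripts. Gm26917 had 2 exons and 1 transcript. How exons of several transcripts are counted is not given in the sources used here, so these numbers may partly reflect the transcripts annotated. Intron reads made up a median of 36.5% of a member's reads, against 40.0% in coding genes, while junction reads differed more. Among genes with at least 200 exon reads, 7.30% of the middle member's exon reads crossed a junction, against 49.2% for protein-coding genes. Junction shares were below 5% in 26 of 56 members (46.4%), against 3.02% of 8345 coding genes, and above 30% in 13 (23.2%), against 73.4%. Fewer exons leave fewer junctions to cross, so the comparison was repeated on genes with 2 to 4 exons. That range uses the same exon numbers, so it is no exact match on junctions per transcript. The median was then 0.739% over 29 members, against 14.8% over 506 coding genes. Among all genes with at least 200 exon reads, 8 of 56 members and 25 of 8345 coding genes had no junction read at all. These members include A630072L19Rik, Gm26551, Gm26778 and Gm26809.

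**Figure D5:**
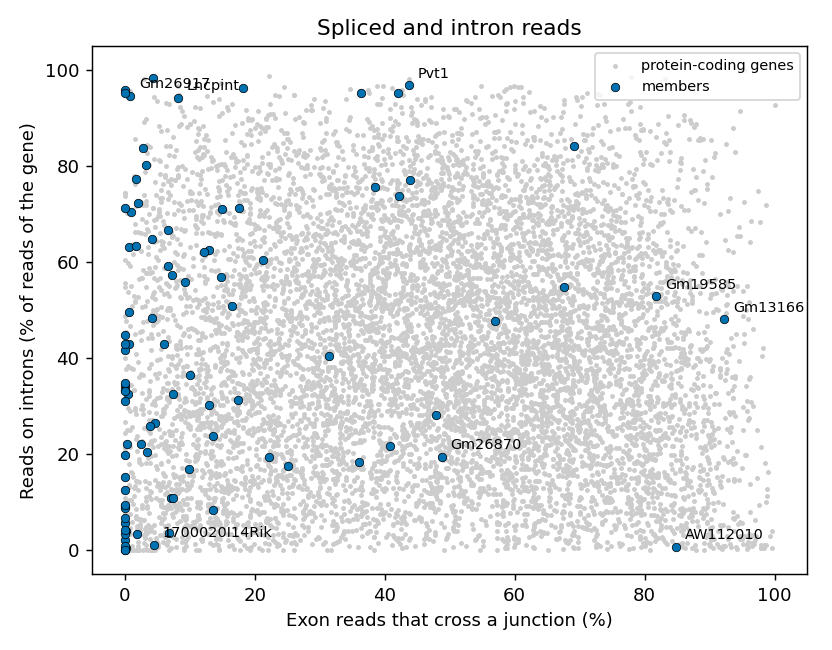
Share of exon reads that cross a splice junction (x axis, %) and share of reads on introns (y axis, %) for the 91 members (blue) and protein-coding genes with the same read minimum (grey). AW112010 lies at 84.8% and 0.733%, Gm26917 at 0.781% and 94.7%, and many members lie at the left edge, with hardly any junction reads.

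Of the 91 members, 23 (25.3%) started within 2 kb of a protein-coding start, 20 of them on the opposite strand, against 12.2% of the 3219 other autosomal lincRNA rows. Most of those rows did not reach the read minimum. Strand use is not given, so reads of a close or overlapping gene may count towards that minimum. Position is therefore not independent of the rule. B230354K17Rik starts 145 bases from Cdc5l, a splicing gene, 4933406I18Rik 120 bases from Pde3b, a cyclic AMP phosphodiesterase gene, and Cep83os 177 bases from Cep83, a centriole gene. Each of these pairs is on opposite strands. Pde3b was at 749 to 1078 CPM and Cep83 at 25.3 to 33.6 CPM. Cep83os was at 3.74, 6.97, 4.36, 10.9, 5.17 and 5.80 CPM, above its other values in library 21, where it had the fewest reads behind it; without library 21 its fitted ratio was 1.79, against 2.74 with it. The window between both starts is short enough to show whole (chr10:94688564-94688863, minus strand, GRCm38.p6). Capitals run over the 178 bases from the start of Cep83 to that of Cep83os, both included.
Cep83os promoter: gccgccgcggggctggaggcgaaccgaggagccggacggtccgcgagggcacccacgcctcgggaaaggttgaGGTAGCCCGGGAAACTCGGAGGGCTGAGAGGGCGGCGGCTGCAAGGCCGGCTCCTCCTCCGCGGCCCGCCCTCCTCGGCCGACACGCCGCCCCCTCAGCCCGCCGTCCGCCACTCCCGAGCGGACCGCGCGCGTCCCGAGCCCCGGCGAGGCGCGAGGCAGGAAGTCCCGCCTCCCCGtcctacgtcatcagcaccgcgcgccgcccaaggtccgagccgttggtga

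Of the 91, 28 (30.8%) overlapped a protein-coding span, against 13.7% of the other lincRNA rows, and 49 (53.8%) overlapped a gene of any kind, against 34.6%. These shares are likewise not independent of the read minimum. In GENCODE M21, 11 members have another biotype, 4 of them bidirectional promoter lncRNAs, and 6330403K07Rik is there a protein-coding gene. In 4 members, Gm13166, Gm20707, Gpr137b-ps and Gm26525, under 95% of exon reads were unique, and their values are uncertain. The median ratio of unique to all exon reads was 0.302 in Gm13166, 0.917 in Gm20707 and 0.839 in Gpr137b-ps.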

How the data were processed

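Per the labels' protocols, sorted cells gave RNA through the NucleoSpin XS Micro kit, and the QIAseq UPXome kit made the libraries. The submitters' processing notes list GRCm38 and mm10 as builds. Aligner, counter, strand use and molecular identifiers: not given in the sources used here. Per the file headers, the deposited table gives exon read counts per gene and library, which are not normalized, RPKM values scaled by the authors to length and depth, the fraction of a gene's reads on introns, and the ratio of unique to all exon reads. Intron and junction reads were read from the same table. Its 8 other value columns for each library stayed unused.

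Levels are CPM on effective library sizes (TMM, edgeR 4.0.16, R 4.3.3, 9510 genes kept by filterByExpr, all libraries as 1 group). Intron reads were divided by the intron reads of their library. Exact Poisson and binomial intervals are at 95%, and the limit for a count of 0 is 3 reads. The chi-square test had 5 degrees of freedom and was tested on simulated data. Intervals and tests cover counting error only, since copies made by PCR are not independent molecules. Fitted ranges add 2 reads to each library. DESeq2 1.42.0 gave an alternative scaling. Promoters and microRNAs come from RefSeq tables (GRCm38.p6), gene positions from the deposited table, transcripts and later biotypes from GENCODE M21 (GRCm38).

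The libraries match no label, so the comparison of Gpx4 cKO with WT was not run. Nothing in the labels says that the samples came from separate animals. Named members are the 20 with the highest median CPM, the 15 with the widest range at a mean of at least 5 CPM, any member in excess in 1 library, and those on a list of 55 lincRNAs with a known role (6 found). Other members named for a neighbour, a motif or a threshold were chosen after their values were seen. The members and lists were chosen with earlier results of these data known.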

Additional observations from a re-analysis of the deposited data

Results flagged for a closer look

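The 37 named members were examined for a library far from the others over the 6 libraries, which form no labelled group. In 9 the gap to the nearest library relative to the whole range was above the 95% critical value of Dixon's test for 1 set of values. That test's chance rate of about 1 in 20 does not apply here, since 6 of the 9 were named for their wide range over the same values. A630072L19Rik had the largest gap, with 78.6 CPM in library 23 (gap 0.856 of its range). Library 21 was apart in 6. Gm44226 stood high there at 32.6 CPM, Gm26853 at 43.4 CPM and Gm26778 at 22.9 CPM. Gm13166 and B230217O12Rik stood low there at 2.41 CPM each, and E130102H24Rik at 0.0 CPM. Few of the exon reads of Gm13166 were unique (median ratio 0.302). AI480526 stood high in library 19 at 39.5 CPM, and 1810058I24Rik low in library 23 at 22.1 CPM; without library 23 its fitted ratio of highest to lowest library was 1.17, against 1.90 with it. Library 21 has the fewest reads, and its values at 2.41 CPM are 2 reads each.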

How the results depend on the processing

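The count of 41 varying members was 41 or 42 under library totals, TMM without the filter and DESeq2 size factors. Leaving out 1 library gave 27 to 39 members, with the 27 (of 45 tested) without library 19. The shares of all genes called under these scalings and without 1 library are not given here. These counts are therefore no result about the members. With at least 50 reads in total it was 64 of 91 (70.3%), beside 69.3% of all genes, and with at least 500 reads 21 of 22 (95.5%), beside 74.6%. The summed level without Gm26917 and Gm26870 was 2316 CPM. The median fitted ratio of highest to lowest library over the named members was 2.78, and 1.56 without libraries 21 and 23, an alternative chosen after seeing the data, as were intron reads and the removal of those 2 genes. The read minimum set the number of members: 150 with 10 reads, 44 with 50 reads and 17 with 20 reads in all 6 libraries, with median shares of 0.389%, 0.351% and 0.313% of exon reads. At 4-fold, 1 member was in excess in a single library, with no share over all genes to set beside it. The cause of these changes was not tested beyond the fewer or more genes and reads that each setting holds. Of 370 ratios of named members under an alternative, 328 stayed within 1.5 times, and 19 of the other 42 came without libraries 21 and 23. No paired analysis was possible because the columns carry no replicate numbers and could not be matched to samples. DESeq2 and edgeR tests of genotype were not run for the same reason. Depth limits members under about 4 CPM in library 21.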
